A study of Drosophila melanogaster with 4 samples.

Results

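The 9 genes described here are the core of the fly's enzymatic defence against reactive oxygen and its transcriptional control: the superoxide dismutases Sod1, Sod2 and Sod3, the catalase gene Cat, the peroxiredoxin gene Jafrac1, the glutathione synthesis genes Gclc and Gclm, and the regulators cnc and Keap1. They were chosen by name, for their known roles, from the 13929 genes of the counts table, with earlier results of these data known. Of the 9, 8 were found directly under their symbol for the FlyBase identifier, and Jafrac1 was found as Prx2 (FBgn0040309), its present symbol. Nuclear RNA had been sequenced from R1-R6 photoreceptors of male flies at day 30 after eclosion, collected at zeitgeber time 6. The siTop3β flies carried the hairpin line TRiP.JF01282, directed against the DNA and RNA topoisomerase Top3β, and the siControl flies carried UAS-mCherry-RNAi, directed against mCherry, a fluorescent protein with no counterpart among fly genes. Both genotypes carried UAS-Dcr-2.D, w[1118], ry[506], UAS-GFP-Msp300KASH and rh1-GAL4. The Rh1 driver restricts both the hairpin and the GFP tag on the nuclear envelope to outer photoreceptors, and the tagged nuclei were pulled from head homogenate with an antibody. Each group had 2 libraries, and per the supplementary methods each library of such experiments was made from a pool of age-matched males, so the spread given is between pools and not between flies.

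In animal cells superoxide is turned into hydrogen peroxide by superoxide dismutases, and the peroxide is then removed by catalase, by peroxiredoxins that draw on thioredoxin, and by enzymes that draw on glutathione. The long protein made from cnc is the fly counterpart of mammalian Nrf2: it is held at a low level by Keap1, an adaptor of a Cul3 ubiquitin ligase, and when oxidants act on Keap1 it pairs with the small Maf protein and activates detoxification genes, Gclc and glutathione transferases among them. Photoreceptors are known for heavy oxygen use and for light-driven production of reactive oxygen. Because the libraries hold nuclear RNA, a value here reports transcripts in the nucleus and says nothing on protein or on enzyme activity.

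Library totals lay between 3239201 and 4267208 counts, and 3 counts, the limit that a count of 0 allows, stood for 0.697 to 0.871 CPM, the TMM-scaled counts relative to library size. All 10 markers of outer photoreceptors were detected and together reached 57519.7 and 64028.0 CPM in siTop3β and 65464.4 and 66613.4 CPM in siControl. Markers of other cells were read too. The lists hold different genes, so their sums do not give the share of RNA from each cell type. The 4 markers of inner photoreceptors summed to 81.3 and 87.3 CPM in siTop3β and 86.4 and 97.3 CPM in siControl. Summed glial markers gave 104.5 and 86.0 CPM in siTop3β and 92.7 and 108.2 CPM in siControl, and those of pigment and cone cells gave 465.2 and 439.0 CPM in siTop3β and 549.4 and 623.3 CPM in siControl. Markers of fat body and haemocytes summed to 608.9 and 659.2 CPM in siTop3β and 908.9 and 958.6 CPM in siControl, most of it from apolpp; of the others on that list, Hml and Lsp2 overlapped between the groups and Yp1 and NimC1 had too few reads to test. The 4 markers of other neurons summed to 134.7 and 115.1 CPM in siTop3β and 150.2 and 145.4 CPM in siControl. None of the markers listed was at 0 in every library, and of all marker genes tested only apolpp, a fat body lipoprotein gene with -0.61 on the log2 scale, had an adjusted p under 0.05 (0.023 from edgeR). In these bulk libraries, fewer nuclei of a type and less RNA per nucleus cannot be told apart. The target transcript itself was not lower: Top3β had 16.5 and 19.0 CPM in siTop3β and 16.3 CPM in each siControl library, a log2 fold change of 0.13 with a 95% interval from -0.39 to 0.64, so directions below follow the libraries' labels.

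None of the 9 antioxidant genes differed between siTop3β and siControl at an adjusted p under 0.05 in edgeR's quasi-likelihood test. Of the 7029 genes tested, 1.21% did, a share too small for a count among 9 genes to be read against. The DESeq2 Wald test called 0 of the 6 members to which it gave an adjusted p, beside 51 of 4225 over all genes. There 1 of the 9 members had an unadjusted p under 0.05, beside 295 of 13144 over all genes. All 9 passed the expression filter, Sod3 only through the siTop3β libraries, where it was high. Of the 9 log2 fold changes 7 were below 0 and 2 above, beside 3271 below 0 among the 7029 genes tested. With 9 genes, some of them close to 0, these counts are no result about the members. Their median was -0.13, beside 0.02 over all genes tested. In edgeR 2 members had an unadjusted p under 0.05, cnc in the lower direction, which 5.43% of tested genes reached, and Sod3 in the higher direction, which 3.66% reached. Precision was sufficient to place 7 of the 9 genes within a factor of 2 of siControl: their 95% intervals, not adjusted for the number of genes, held neither a doubling nor a halving. The exceptions were Sod2, whose interval reached down to 36.4% of siControl, and Sod3, whose interval reached up to 7.85-fold.

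**Figure D1:**
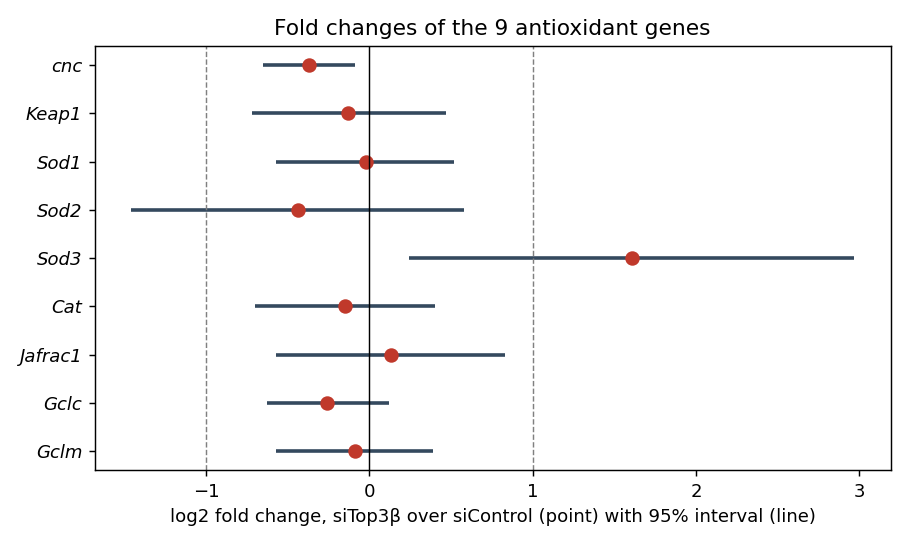
Log2 fold changes of the 9 antioxidant genes, siTop3β over siControl, from edgeR. Points are estimates, lines their 95% intervals, and dashed lines mark a doubling and its inverse. The intervals of cnc (-0.65 to -0.09) and Sod3 (0.24 to 2.97) lie to one side of 0, and neither gene passed the adjusted threshold.

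The regulator cnc had the highest CPM of the 9 genes, not scaled by length, and the smallest standard error. It lies on the minus strand of chromosome 3R from 23185580 to 23226711 (dm6), spans 41.1 kb, and its 16 annotated transcripts include short and long protein forms that the counts do not separate. Its level was 211.3 and 200.8 CPM in the siTop3β libraries, against 247.3 and 285.9 CPM in the siControl libraries, from 728 and 752 counts and from 1065 and 999 counts. Both siTop3β libraries were therefore below both siControl libraries. The means were 206.0 ± 7.42 CPM in siTop3β and 266.6 ± 27.3 CPM in siControl (SD, n = 2 each). The siTop3β level came to 77.3% of siControl, with an interval from 63.7% to 93.8%, a log2 fold change of -0.37 (SE 0.14) whose adjusted p was 0.278 in edgeR. Without siControl replicate 2, the higher of the control libraries, the log2 fold change was -0.28 with an unadjusted p of 0.205. The summed markers of outer photoreceptors, of pigment and cone cells and of other neurons, given above, were lower in both siTop3β libraries too. So was the fat body gene apolpp. The summed markers of glia and of inner photoreceptors, given above, overlapped between the groups. Single markers varied: of the 10 for outer photoreceptors, 5 had both siTop3β libraries below both siControl libraries, and 1, trp, had them above. Most of the pigment and cone cell sum came from Sap-r. The part of these markers in the cnc value was not tested.

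Other annotated genes overlap cnc. The gene fzo, a mitofusin of the male germline, sits on the same strand within cnc and shares none of its exons, and it carried 117 and 107 counts in siTop3β and 186 and 138 counts in siControl. Its log2 fold change, -0.41 (adjusted p = 0.531 from edgeR), was close to that of cnc, and fzo was singled out after its values were seen. How reads from cnc introns were assigned is not stated, so the 2 genes' counts may share a source, which was not tested. The neighbours Irk1 and CG46310 overlap 63 bp of cnc on the opposite strand, and had at most 4 counts in any library. By span, cnc belongs with the long genes of these nuclei: the 886 tested genes over 20 kb had a median log2 fold change of -0.12, beside 0.02 over all 7029, and 28 of them were called lower and 4 higher, of 58 and 27 calls in all. Whether length plays a part in the values of cnc was not tested.

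Keap1, which restrains the long protein made from cnc, had close values in the groups. It lies on chromosome 3R from 17073942 to 17079945, on the minus strand, with 3 transcripts and 6.00 kb of span. Keap1 read 12.5 and 10.1 CPM in siTop3β, and 12.1 and 12.6 CPM in siControl. The groups overlapped, and the log2 fold change was -0.13, with an interval from -0.72 to 0.47 (adjusted p = 0.968, edgeR).

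Among the superoxide dismutases, the cytosolic copper and zinc enzyme Sod1 was nearly level, the mitochondrial manganese enzyme Sod2 was somewhat lower and the extracellular enzyme Sod3 was higher, and none passed the adjusted test. Sod1 (chromosome 3L, 11112281 to 11113740, minus strand) gave 16.8 and 13.4 CPM in siTop3β and 16.5 and 14.0 CPM in siControl. In each group replicate 1 stood above replicate 2 by more than the group means differed, 15.1 ± 2.46 in siTop3β and 15.3 ± 1.74 CPM in siControl (SD, n = 2 each). The log2 fold change of Sod1 was -0.02, with an interval from -0.57 to 0.52.

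Sod2 (chromosome 2R, 16772785 to 16773915, minus strand) rested on few reads, 11 and 17 counts in siTop3β and 22 and 19 in siControl. These are 3.19 and 4.54 CPM in siTop3β against 5.11 and 5.44 CPM in siControl, so the groups did not overlap. Counting error alone spanned more than the gap: 11 counts have an exact Poisson 95% interval from 5.49 to 19.7, which reaches the 19 counts of siControl replicate 2. Its log2 fold change was -0.44 (SE 0.50), with an adjusted p of 0.885 in edgeR.

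Sod3, the isoform that works outside the cell, had the fewest counts of the 9 genes in siControl, 6 in each library, and 22 and 12 in siTop3β. Both siTop3β libraries and neither siControl library reached the limit of the expression filter, 2.64 CPM before TMM scaling, so the gene was tested only because it was high in siTop3β. In CPM this was 6.38 and 3.20 in siTop3β and 1.39 and 1.72 in siControl, a fitted 3.04-fold difference with an interval from 1.18-fold to 7.85-fold. The siTop3β libraries themselves differed 1.99-fold, the widest replicate gap among the 9 genes. The adjusted p was 0.401 in edgeR (unadjusted 0.0228), and the DESeq2 Wald test gave an unadjusted p of 0.162 and no adjusted one. Leaving out siTop3β replicate 1 brought the log2 fold change of Sod3 to 1.04, in place of 1.61, with an unadjusted p of 0.289, and leaving out either siControl library also took the unadjusted p past 0.05, to 0.125 and 0.0746. The library siTop3β replicate 1 held more reads on scarce genes in general, with a count for 12922 genes against 10104 in siTop3β replicate 2 and 10479 and 10537 in siControl. Over the 45 companion genes too low to test (the companions are listed further on), it had 3.61 counts per exonic kb, against 0.967 in siTop3β replicate 2 and 1.24 and 1.53 in siControl replicates 1 and 2, where Sod3 had 10.9 per exonic kb in siTop3β replicate 1, 5.95 in siTop3β replicate 2 and 2.97 in each siControl library. The yolk protein gene Yp1, from the list of fat body and haemocyte markers, had 48 counts in siTop3β replicate 1, 1 in siTop3β replicate 2, and 0 and 2 in siControl. The flies were male, and the source of the Yp1 reads was not tested. The part of such reads, on Yp1 or on scarce genes in general, in the Sod3 value was not tested. Sod3 lies on chromosome 2R from 11380347 to 11384114, on the minus strand, and no other annotated gene overlaps it.

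The enzymes that remove peroxide differed between the groups by less than the spread of the libraries. Cat, the peroxisomal catalase (chromosome 3L, 18822604 to 18828188, plus strand), had 13.1 and 15.5 CPM in siTop3β and 13.9 and 18.0 CPM in siControl. The ranges overlapped, and the siTop3β level was 89.9% of siControl with an interval from 61.4% to 132%. Jafrac1, a cytosolic peroxiredoxin that is reduced by thioredoxin (chromosome X, 13329824 to 13331994, plus strand), had 10.4 and 8.28 CPM in siTop3β and 6.97 and 10.3 CPM in siControl. Here the control libraries were the ones further apart, 1.48-fold, and the interval of the log2 fold change ran from -0.57 to 0.83 around an estimate of 0.13.

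Glutathione synthesis begins with glutamate-cysteine ligase, made of the catalytic subunit Gclc and the modifier subunit Gclm. Gclc (chromosome X, 8102181 to 8116147, minus strand) had 43.0 and 36.0 CPM in siTop3β and 49.7 and 44.4 CPM in siControl. Both siTop3β values lay below both control values, though by a narrow gap between 43.0 and 44.4. The log2 fold change of Gclc was -0.26 (SE 0.18, adjusted p = 0.764 in edgeR), and its interval reached from 64.6% to 109% of siControl. For Gclm (chromosome 3R, 22685006 to 22686510, minus strand), a gene without annotated introns, the levels were 35.4 and 21.1 CPM in siTop3β and 32.0 and 27.8 CPM in siControl. The siTop3β replicates stood 1.68-fold apart and enclosed the control values, so that the estimate changed sign with the library left out: -0.51 without siTop3β replicate 1 and 0.20 without siTop3β replicate 2. With all libraries it was -0.09.

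Across the 9 genes, groups did not overlap for 3 in the lower direction (cnc, Gclc and Sod2) and 1 in the higher (Sod3), while 5 overlapped. Of all tested genes 19.0% were apart in the lower direction and 19.6% in the higher, and with 9 genes these counts are no result about the members. Shared features were limited. The members were scattered over chromosomes X, 2R, 3L and 3R, from 1.13 kb (Sod2) to 41.1 kb (cnc) in span, and only cnc overlapped other annotated genes.

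**Figure D2:**
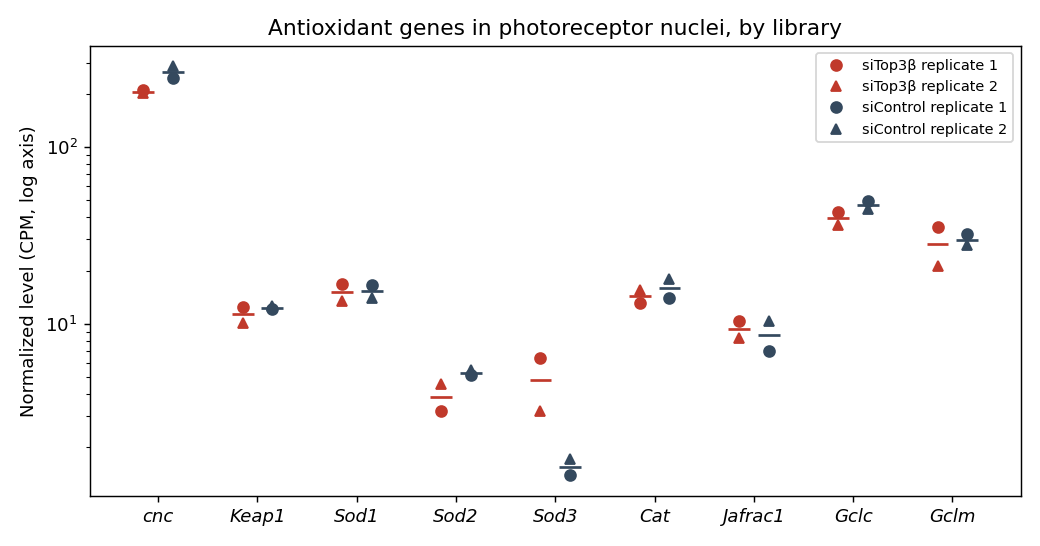
Normalized level of each antioxidant gene in every library, in CPM on a log axis. Each symbol is a library (circle, replicate 1; triangle, replicate 2) and each bar a group mean of 2. The groups are apart for cnc, Sod2, Sod3 and Gclc and intermixed for the others, and Sod3 shows the widest gap between siTop3β replicates, 6.38 and 3.20 CPM.

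The order of abundance could be given only per length. Per kb of exons, the mean over the 4 libraries was highest for cnc (25.7 CPM per kb), followed by Sod1 (20.6) and Gclm (19.3), whose library ranges overlapped with one another. Gclm was 1.97-fold above the next gene, Gclc (9.83), with no overlap of their library values. From Gclc the levels went down through Cat (7.59), Jafrac1 (6.15), Sod2 (4.50) and Keap1 (3.43) to Sod3 (1.57), each pair of neighbours overlapping. On this scale cnc stood at the 82.5th percentile of the tested genes, Sod1 at the 78.6th, Cat at the 54.5th, Keap1 at the 29.6th and Sod3 at the 8.95th. Transcripts of cnc, with short and long forms pooled, exceeded those of Keap1 7.51-fold per exonic kb. The counts do not give the part of the long form in this ratio.

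Because nuclear RNA holds unspliced transcripts and the treatment of introns in counting is not stated, the order was also taken per kb of the whole gene. Gclm was then first at 19.3 CPM per kb, followed by Sod1 at 10.4 and cnc at 5.75, and these were apart from each other and from Jafrac1 at 4.14. Gclc, with 68.5% of its span in introns, moved down to rank 6. The excess of cnc over Keap1 became 2.92-fold. Sod1 was above Sod2 on either scale, 4.59-fold per exonic kb and 2.57-fold per kb of span, and Sod3 was last on both.

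**Figure D3:**
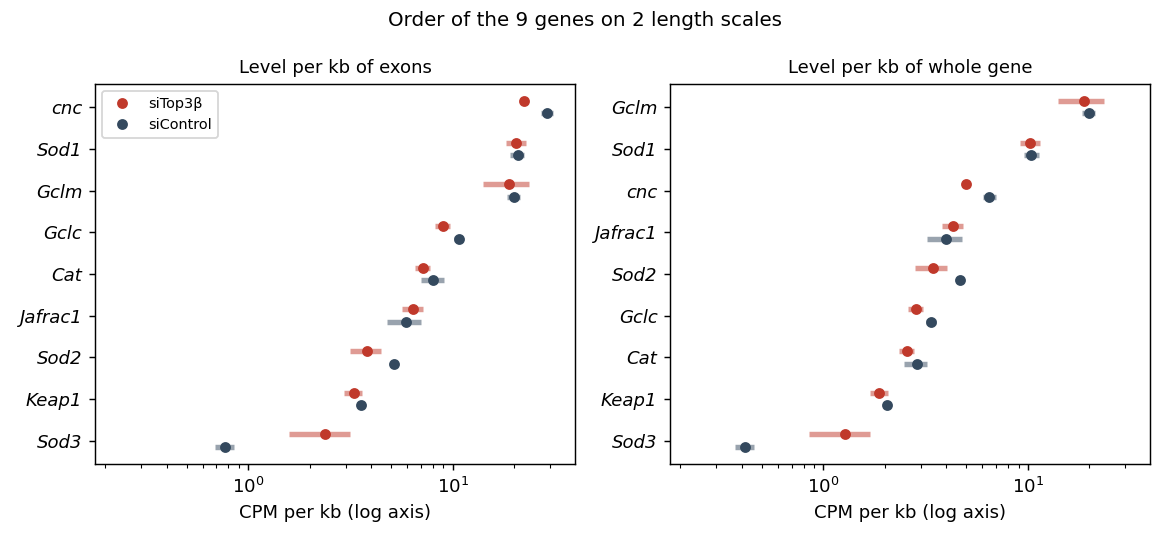
Levels of the 9 antioxidant genes per kb of exons (left) and per kb of the whole gene (right), in CPM per kb on a log axis. Points are means of 2 libraries and bars the range between them. On the exonic scale cnc, Sod1 and Gclm are the top 3, on the span scale Gclm, Sod1 and cnc, and Sod3 is lowest on both.

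Around these genes stands a wider antioxidant network, described here by 92 companion genes in 10 lists, of which 47 had enough reads to be tested. None was called by edgeR, beside 1.21% of all tested genes, a share too small for a count among 47 genes to be read against. Of the 47, 3 had an unadjusted p under 0.05 in edgeR, all lower (Fer2LCH, ref(2)P and Trxr1). That direction and p were reached by 5.43% of all tested genes. The DESeq2 Wald test called 0 of the 21 companions it gave an adjusted p, beside 51 of 4225 over all genes. Of the 88 companions it ran on 1 had an unadjusted p under 0.05, beside 295 of 13144 over all genes. The median log2 fold change of the 47 was -0.08, beside 0.02 over all tested genes. Of the 47, 29 were below 0 and 18 above, beside 3271 below 0 among all 7029 tested genes. Groups did not overlap for 13 of the 47 in the lower and 4 in the higher direction, beside 19.0% and 19.6% of all tested genes. Within each list, the genes named below are up to 3 with the highest mean CPM.

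The list of genes grouped as partners of cnc and Keap1 had log2 fold changes from -0.75 to 0.24. All 10 were tested, and 8 were below 0, beside 3271 of all 7029 tested genes. Their median was -0.10, beside 0.02 over all tested genes. Groups did not overlap for 4 in the lower and 0 in the higher direction, beside 19.0% and 19.6% of all tested genes. With 10 genes these counts are no result about the list. Cul3, the scaffold of the ligase that Keap1 serves, was precise and nearly level, at 121.3 and 117.7 CPM in siTop3β and 130.3 and 122.5 CPM in siControl (log2 fold change -0.08, interval -0.36 to 0.20). The autophagy adaptor ref(2)P, the fly p62 and a gene that the cnc protein activates, had 64.1 and 49.1 CPM in siTop3β and 81.5 and 68.4 CPM in siControl, a log2 fold change of -0.41 with an adjusted p of 0.393 in edgeR. For fs(1)h, a bromodomain protein, the log2 fold change was -0.05.

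The thioredoxin system, on which Jafrac1 depends and which in flies also stands in for glutathione reductase, had 6 of 10 genes tested. Of these, 4 had negative fold changes, and the median was -0.30, beside 0.02 over all tested genes. The reductase Trxr1 had 40.6 and 33.6 CPM in siTop3β and 44.6 and 55.5 CPM in siControl (log2 fold change -0.43, adjusted p = 0.449 from edgeR). Cytosolic thioredoxin, Trx2, read 12.8 and 9.35 CPM in siTop3β and 15.6 and 14.9 CPM in siControl, with a log2 fold change of -0.47 and an adjusted p of 0.700 in edgeR. Both genes had non-overlapping groups, and the thioredoxin-like gene Txl, at -0.18, did not. Of the 6 tested, 2 were apart in the lower and 0 in the higher direction, beside 19.0% and 19.6% of all tested genes. With 6 genes these counts are no result about the list. Of the peroxiredoxins and sulfiredoxin only 3 of 7 could be tested, Jafrac2 of the endoplasmic reticulum (0.45), mitochondrial Prx3 (-0.08) and the repair enzyme Srx (-0.13), all from 18 counts or fewer in any library.

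In glutathione synthesis and use 14 of 40 genes were tested, 7 with positive and 7 with negative fold changes, and the median was -0.05. Most glutathione transferases, many of them inducible detoxification enzymes, were scarcely represented in these nuclei: 24 of the 36 listed were below the filter. The 3 most abundant genes of the list were GstS1 (log2 fold change -0.24), Mgstl (-0.14) and GstE12 (-0.46). GstE12 had 16.3 and 16.0 CPM in siTop3β and 18.3 and 26.3 CPM in siControl, with an adjusted p of 0.638 in edgeR.

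Ferritin gave the lowest p among the companions. Fer2LCH, the ferritin light chain, had 73.7 and 77.7 CPM in siTop3β and 103.6 and 105.9 CPM in siControl, or 72.3% of siControl with an interval from 58.9% to 88.9%. The replicates of Fer2LCH lay close together and the groups apart, and still the adjusted p was 0.132 in edgeR. The heavy chain Fer1HCH had 47.0 and 47.3 CPM in siTop3β and 65.0 and 53.8 CPM in siControl (log2 fold change -0.34, adjusted p = 0.576 in edgeR), and Ho, haem oxygenase, had 0.10. The fat body gene apolpp, given above, was also lower in siTop3β, while the other markers of its list overlapped between the groups, and the part of fat body RNA in the ferritin values was not tested.

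Of the remaining lists, the genes that supply NADPH had a median of -0.17 over 5 tested genes, with the malic enzymes Men (-0.17) and Men-b (-0.14) and the isocitrate dehydrogenase Idh1 (0.10, now Idh) all close to 0. The methionine sulfoxide reductases were Eip71CD (0.45) and SelR (-0.05). Among catalase relatives the secreted peroxidases Irc (0.19) and Pxn (-0.05) were tested, and in the superoxide dismutase family only Ccs, the copper chaperone of Sod1, which had 9 and 13 counts in siTop3β and 8 and 5 in siControl (log2 fold change 0.87, interval -0.63 to 2.37). None of these passed the adjusted test.

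**Figure D4:**
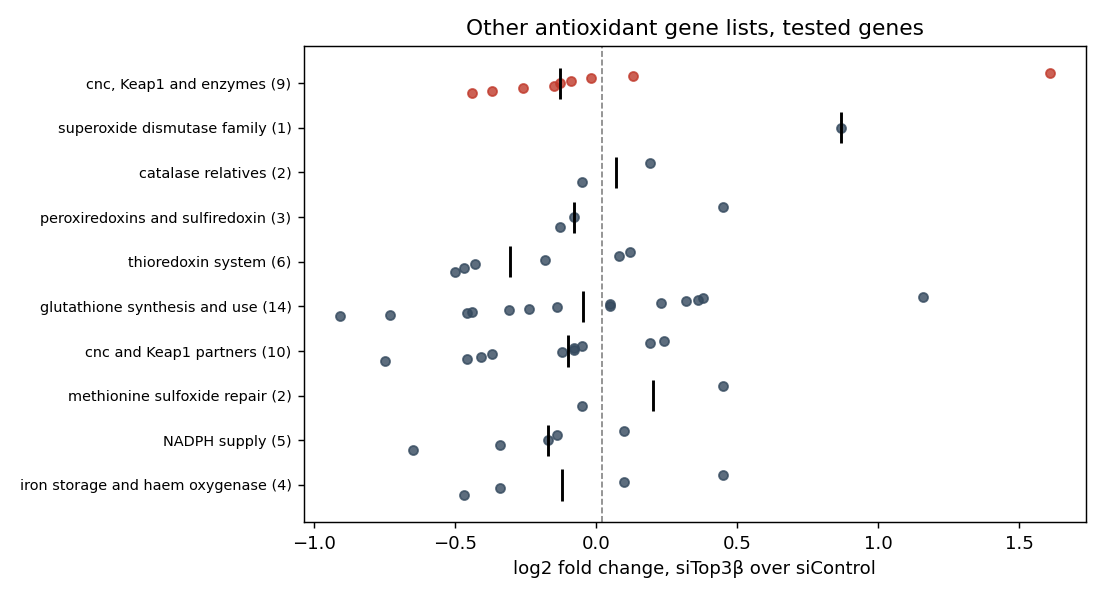
Log2 fold changes, siTop3β over siControl, of the tested genes in the member list (red) and in the companion lists (grey), with the number of tested genes in brackets. Black ticks are list medians and the dashed line is the median of all tested genes, 0.02. No gene drawn passed the adjusted threshold, and Sod3 (1.61) is the point farthest to the right.

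The superoxide and peroxide producers Nox and Duox were below the expression filter, and most of their reads fell in a single library. Nox had 25 and 0 counts in siTop3β and 1 and 2 in siControl, and Duox had 27 and 2 counts in siTop3β and 3 and 6 in siControl. The high values of siTop3β replicate 1 were not repeated in siTop3β replicate 2. Of the 45 untested companions, 32 had their highest CPM in siTop3β replicate 1, 4 in siControl replicate 1, 5 in siControl replicate 2 and none in siTop3β replicate 2, and 4 had no count in any library.

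Single libraries weighed on several of the members. When the libraries were omitted singly, cnc stayed at log2 fold changes between -0.50 and -0.28 and Gclc between -0.38 and -0.17. Sod2 ran from -0.76 to -0.21, with -0.76 when siTop3β replicate 2 was left out and -0.21 when siTop3β replicate 1 was. For Sod3 the values were between 1.04 and 1.99, with an adjusted p of 0.0815 or more in edgeR. Sod1, Cat, Gclm and Jafrac1 changed sign with the library left out, and Keap1 lay between -0.28 and -0.02. The groups of cnc, Gclc, Sod2 and Sod3 did not overlap with all libraries kept, so leaving out a library could hardly change their signs.

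**Figure D5:**
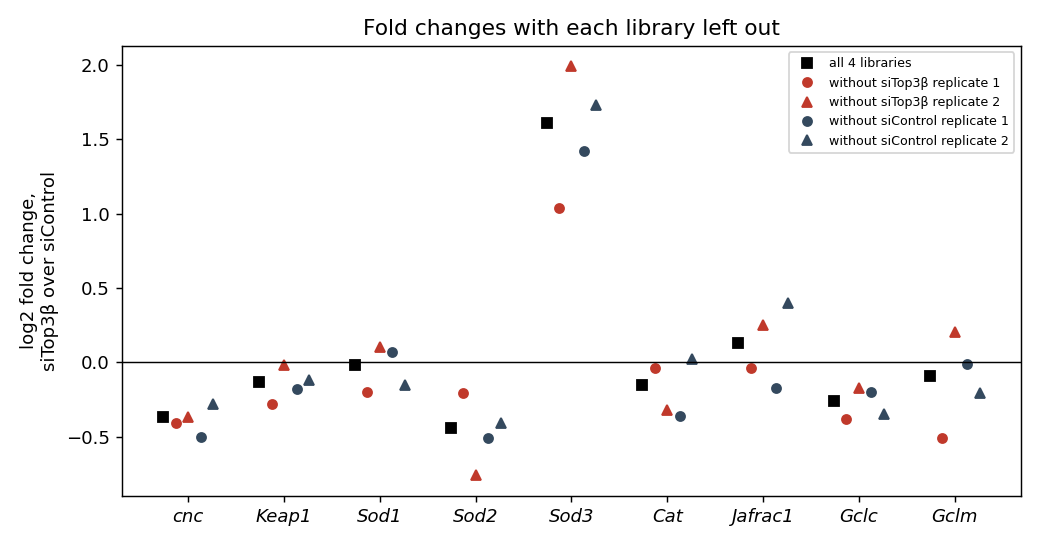
Log2 fold change of each antioxidant gene, siTop3β over siControl, from all 4 libraries (squares) and with the library named in the legend left out. Values of cnc, Gclc, Keap1 and Sod2 stay below 0 and those of Sod3 above 0, from 1.04 to 1.99, while Sod1, Cat, Gclm and Jafrac1 fall on both sides. For cnc, Gclc, Sod2 and Sod3 the groups did not overlap, so leaving out a library could hardly change the sign.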

How the data were processed

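Reads had been trimmed (Trimmomatic) and mapped to dm6 (STAR), and the authors deposited whole-number counts for 13929 genes, not normalized. The counting tool, its annotation, and its use of strand, introns and shared reads are not given in the sources used here. Samples were grouped by their treatment label, and column names matched sample titles. Counts were filtered with filterByExpr (7029 genes), scaled by TMM and tested with edgeR 4.0.16 in R 4.3.3 by the robust quasi-likelihood test without a replicate block, with Benjamini-Hochberg adjustment over all tested genes and a threshold of 0.05. Standard errors and 95% intervals came from the F statistic. DESeq2 1.42.0, the tool of the study, was an alternative. Deviations from the group means correlated at -0.126 between libraries numbered alike, so the numbers were not taken as pairs.

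Spans, exons and dm6 coordinates came from Ensembl release 115, which covered 13866 genes. Symbols came from its gene table and from RefSeq synonyms, and 92 of 93 companion symbols matched. Members and lists were chosen with earlier results of these data known. Named are all 9 members, Top3β, up to 3 companions with the highest mean CPM per list, and any companion called. With 4 libraries, no similarity of patterns across libraries was computed. Intervals on single counts cover counting error only.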

Additional observations from a re-analysis of the deposited data

How the results depend on the processing

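The members called remained 0 under every setting tried, and among companions Fer2LCH, Nox and Duox passed the adjusted threshold in 1 alternative each, given below. Over all genes the 85 calls became 138 with at least 10 counts in every library, which leaves out Sod3, and 51 with the DESeq2 Wald test, and with a library left out they ran from 52 (without siControl replicate 1) to 424 (without siTop3β replicate 2), with 131 without siTop3β replicate 1. With the replicate number as a block 60 genes were called, none of them a member or companion, and no member's call changed. With the numbers crossed, an alternative added after seeing the data because the correlation of same-numbered libraries was negative, 211 genes, 0 members and 1 companion (Fer2LCH) were called. Of the fits with a library left out, only that without siTop3β replicate 2 called companions, Nox and Duox, at log2 fold changes of 4.08 and 2.67. Those values rested on siTop3β replicate 1 alone, with 25 and 27 counts. Both genes were below the main filter and entered that fit only through this library. Other scalings, filters and tools moved the median of the 7029 genes by -0.06 to 0.05.

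Signs of values near 0 changed. Sod1 was 0.03 with upper quartile scaling and 0.01 with total counts only, Pxn was 0.01 and fs(1)h 0.00 with upper quartile scaling. With single libraries left out, Top3β ran from -0.02 to 0.22, Sod1 from -0.20 to 0.10, Cat from -0.36 to 0.02, Gclm from -0.51 to 0.20 and Jafrac1 from -0.17 to 0.40. Among companions the ranges were -0.08 to 0.39 for Irc, -0.38 to 0.19 for Pxn, -0.32 to 0.92 for Jafrac2, -0.27 to 0.06 for Prx3, -0.49 to 0.12 for Srx, -0.42 to 0.01 for Txl, -0.61 to 0.02 for GstS1, -0.22 to 0.07 for fs(1)h, -0.30 to 0.14 for SelR, -0.01 to 0.17 for Idh1 and -0.13 to 0.31 for Ho. The other 17 of 32 named genes kept their sign, which leaving out a library can hardly change where the groups do not overlap. Sod2 and Sod3 had the fewest counts of the members, at most 22 in any library.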
